A study of Mus musculus with 80 samples.

Results

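Per1, Per2 and Per3 are the 3 Period genes of the mouse, and they were taken by name from a table of 23337 genes measured by RNA-seq in 80 libraries of AgRP neurons, the hunger-promoting neurons of the arcuate hypothalamus. All 3 were above the filter on low values in each of the 4 experiments. Sorted cells (33 libraries) came from NPY::hrGFP mice, in which a green fluorescent protein marks neurons that use the Npy promoter. They were collected at ZT2 and ZT14 after ad libitum feeding (6 and 3 libraries), an effective 24-h fast (7 and 8) or that fast with 1 h of refeeding (5 and 4). ZT is zeitgeber time, in hours after lights on, so that ZT2 falls in the early light phase and ZT14 in the early dark phase. RiboTag RNA (17 libraries), the RNA bound to tagged ribosomes, came from AGRP-Cre;RiboTag mice that were fed (3 at ZT2 and 4 at ZT14) or fasted (5 at each time). The leptin series (25 libraries) compared AGRP-Cre;BMAL1fx mice, in which Cre driven by Agrp removes the floxed clock gene Bmal1 (Arntl), with WT;BMAL1fx controls that carry the floxed allele without Cre. Each genotype was given PBS or leptin and collected at ZT2 or ZT14, with 3 libraries a group and 4 in PBS controls at ZT2. A smaller experiment held 2 control and 3 knockout libraries at ZT5, with no treatment given. Age and sex are not given in the sources used here, and how the cells of the leptin series and of the ZT5 series were collected is not described apart from the rest.

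Period proteins are the negative limb of the circadian clock. The activators CLOCK and BMAL1 bind E-boxes and raise transcription of Per and Cry genes, and PER and CRY proteins return to the nucleus and repress CLOCK and BMAL1. Per1 and Per2 also have promoter elements through which CREB and the glucocorticoid receptor raise them, so both serve as entry points for light, hormone and feeding signals. Per3 is a clock-controlled gene whose loss leaves mouse behavioural rhythms largely intact. In nocturnal mice, Per transcripts of most peripheral tissues peak around dusk and the early night, while Arntl peaks near the opposite phase.

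Values are the authors' normalised counts, gene counts divided by a size factor for each library. The step between low values gave the reads of 79 libraries, 5.925 to 33.977 M (M for 1e6 reads) with a median of 14.273 M. On mm10, Per1 (ENSMUSG00000020893.17) lies on chromosome 11 (69095217 to 69109960, plus strand), Per2 (ENSMUSG00000055866.9) on chromosome 1 (91415982 to 91459324, minus strand) and Per3 (ENSMUSG00000028957.12) on chromosome 4 (151003652 to 151044665, minus strand). Per3 lies inside the longer gene Camta1 on the same strand, with 0 bases of exon in common. In these bulk libraries, fewer cells of a type and less RNA per cell cannot be told apart. Replicates are numbered, but whether each came from its own mouse is not stated. The p-values therefore rest on variation among libraries, part of which may be technical.

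The promoters of Per1 and Per3 are shown because the results below set them beside the genes that act on known clock elements. The windows run from 250 bases before to 50 after an annotated start (RefSeq, GRCm38.p6), and 2 windows of Per1 and 1 of Per3 matched by symbol. Capitals mark the E-box CACGTG, the D-box letters TTATGTAA and the core of a cAMP response element, TGACGT, each searched on both strands with no overlaps between them.
Per1, first start (chr11:69098699-69098998, plus strand): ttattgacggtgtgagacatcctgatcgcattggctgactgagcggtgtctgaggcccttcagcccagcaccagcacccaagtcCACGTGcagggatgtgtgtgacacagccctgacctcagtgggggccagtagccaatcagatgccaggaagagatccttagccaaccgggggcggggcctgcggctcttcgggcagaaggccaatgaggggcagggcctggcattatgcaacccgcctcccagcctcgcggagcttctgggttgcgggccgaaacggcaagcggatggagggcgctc
Per1, second start (chr11:69099902-69100201, plus strand): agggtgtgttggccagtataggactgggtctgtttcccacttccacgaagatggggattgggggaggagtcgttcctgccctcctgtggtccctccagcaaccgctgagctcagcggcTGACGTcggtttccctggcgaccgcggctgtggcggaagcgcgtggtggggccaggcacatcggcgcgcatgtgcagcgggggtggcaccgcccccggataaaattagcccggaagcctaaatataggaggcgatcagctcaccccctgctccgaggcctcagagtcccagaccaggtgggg
Per3 (chr4:151044616-151044915, minus strand): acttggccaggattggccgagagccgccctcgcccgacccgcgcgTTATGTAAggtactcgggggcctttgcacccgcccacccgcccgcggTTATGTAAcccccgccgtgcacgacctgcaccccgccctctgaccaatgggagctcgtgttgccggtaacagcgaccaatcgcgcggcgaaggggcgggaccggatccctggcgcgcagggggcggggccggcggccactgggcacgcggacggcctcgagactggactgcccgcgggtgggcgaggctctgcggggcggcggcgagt
The first Per1 window held 1 E-box and the second held 1 cAMP response core. Of 32851 windows of this length in the genome, 7.15% held an E-box of these letters and 7.51% the cAMP response core. The Per3 window held 2 copies of the D-box letters, which are bound by DBP, TEF and HLF as activators and by NFIL3 as a repressor. A copy was found in 0.938% of all windows and 2 or more in 0.0213%, that is in 7 windows. A match describes letters in a window and was not tested as a site.

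The libraries were checked before the results. Agrp ranged from 28236 to 338140 in sorted cells and the leptin series and from 2910 to 1488900 in RiboTag RNA, where the summed level of 7 astrocyte markers was 9392 to 109400, against 49.4 to 15600 in sorted cells and 77.9 to 938 in the leptin series. Their part in the RiboTag results was not tested. Cebpb and Alyref were high in all 25 fasted and all 5 ZT5 libraries: Cebpb was 42.5 to 1565 and 433 to 630 there, against 0 to 17.1 in the other 50 libraries, and Alyref 545 to 2756 and 1273 to 2173, against 12.3 to 81.8. Rn45s, a ribosomal RNA precursor, had lower medians there (8300 in fasted and 3112 in ZT5 libraries, against 209800 in the others), but fasted RiboTag ZT2 replicate 3, at 148450, lay above all 3 fed RiboTag libraries at ZT2. In the comparisons of fasted with fed libraries, this profile and the feeding state cannot be told apart. The refed cells, which had the same fast before 1 h of food, lacked it, with Cebpb at 0.935 to 11.3. Whether the profile is a library batch was not tested. Hsd11b2 separated the genotypes of the leptin series (2092 to 3749 in knockouts and 0 to 19.7 in controls). At ZT5 the library labelled control 1 had 4628 and the library labelled knockout 3 had 11.2, each against its label. In the leptin series, the PBS control at ZT2 replicate 2 had Arntl at 291, against 616 to 1125 in the other 3 of its group and 223 to 422 in the controls at ZT14.

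Across the 20 groups the 3 genes had different orders of level. Per length of exon, Per2 had the highest mean normalised count per kb in 15 groups, Per3 in 3 and Per1 in 2. Per1 ran from 394.9 ± 246 (SD, n = 5) in fasted RiboTag RNA at ZT14 to 57.2 ± 6.6 (n = 3) in the ZT5 knockouts. Per2 ran from 679 ± 209 (n = 4) in fed RiboTag RNA at ZT14 to 35.2 ± 47.8 (n = 2) in the ZT5 controls, and 8 of its 9 highest groups were collected at ZT14. Per3 ran from 1051 ± 438.5 (n = 6) in fed sorted cells at ZT2 to 41.5 ± 20.01 (n = 3) in PBS knockouts at ZT2. Its 6 highest groups were all fed or control groups, and its 3 highest were fed. In each gene's order, the ranges of all neighbouring groups overlapped.

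**Figure D1:**
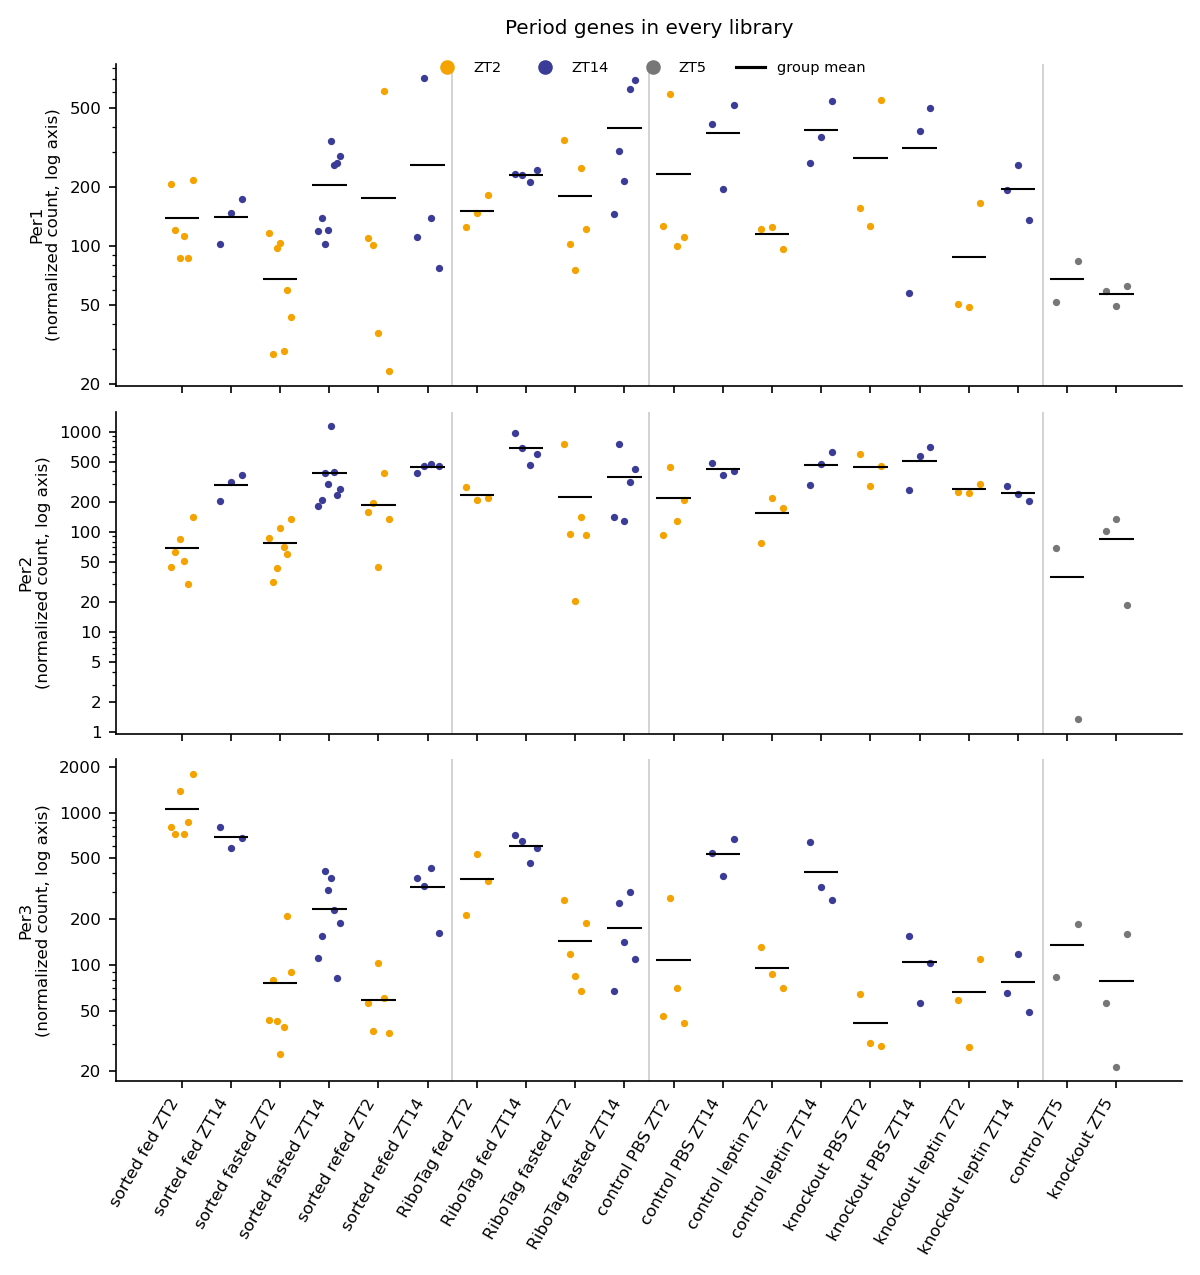
Normalised counts of Per1, Per2 and Per3 (log axes) in every library, by group, with points coloured by ZT and a line at each group mean; grey lines part the 4 experiments. Per2 is higher at ZT14 than at ZT2 in the sorted cells of each feeding state, and Per3 is highest in fed sorted cells, at 1051 ± 438.5 at ZT2.

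Time of day was the first question of the design. Per2, the Period gene most closely tied to clock phase, was higher at ZT14 than at ZT2 in sorted cells of every feeding state. In fed sorted cells, Per2 was 30.3 at the lowest, 57.4 at the median and 142 at the highest of 6 libraries at ZT2, and 205, 317 and 366 at ZT14. In fasted sorted cells it was 31.8, 70.7 and 134 at the lowest, median and highest at ZT2 and 182, 283 and 1132 at ZT14. The times did not overlap in either state. In refed sorted cells Per2 was 158, 193, 45.1, 388 and 135 at ZT2 and 390.1, 453, 472 and 451 at ZT14, so the times again did not overlap, by a narrow margin at the highest ZT2 library. That library, refed ZT2 replicate 4, had the clock gene Nr1d2 at 815, near the 790 to 1384 of refed cells at ZT14. The rest of its group had Nr1d2 at 56.6 to 107.

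On the log2(value + 1) scale, on which all differences below are given, Per2 was 2.21 ± 0.38 (SE) higher at ZT14 in fasted sorted cells (limma, adjusted p = 0.00451), the 6th smallest p of 14931 genes. In these cells 0.281% of genes tested were called at an adjusted p under 0.05 (0.228% higher and 0.0536% lower), and 2 of the 3 Period genes were among them. In fed sorted cells the same difference was 2.21 ± 0.53, but it did not pass (adjusted p = 0.429, 5th smallest p). In that comparison limma called 0 genes, with 413 genes at an unadjusted p under 0.05, and edgeR's quasi-likelihood test called 0. In sorted cells the edgeR test left out fed ZT2 replicate 4, whose reads were not recovered. In refed sorted cells the difference of Per2 was 1.56 ± 0.50 (adjusted p = 0.393). Averaged over the 3 feeding states, a comparison added after the data were seen, Per2 rose by 1.99 ± 0.27 (adjusted p = 0.000142), with the 2nd smallest p of all genes, against 0.335% of genes called (0.275% higher and 0.0603% lower).

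Per3 passed between times in fasted and in refed sorted cells but not in fed ones, and the values of each state are given before the test between states. In fed sorted cells Per3 was 722 at the lowest, 841 at the median and 1791 at the highest at ZT2, and 587, 681 and 801 at ZT14, with a difference of -0.53 ± 0.50 that did not pass (adjusted p = 1). In fasted sorted cells it was 26.0, 43.4 and 209 at ZT2 and 82.3, 209 and 414 at ZT14, and rose by 1.74 ± 0.37 (adjusted p = 0.0269). The fasted times overlapped through 1 library at ZT2, which stood at 209 when the other 6 were at 90.2 or lower. In refed sorted cells Per3 was 56.1, 36.6, 102.8, 60.5 and 35.9 at ZT2 and 372, 332, 432 and 163 at ZT14. These groups did not overlap, and Per3 rose by 2.48 ± 0.48 (adjusted p = 0.0461, 3rd smallest p), where 0.0268% of genes were called (0.0201% higher and 0.0067% lower).

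Neither test of the difference between feeding states passed for Per3 in the main limma fit. The Per3 time difference was 2.27 ± 0.62 larger in fasted than in fed sorted cells (adjusted p = 0.831, 15th smallest p of 14931) and 3.00 ± 0.69 larger in refed than in fed cells (adjusted p = 0.444, 4th smallest). limma called 0 genes in both tests, with 647 and 684 genes at an unadjusted p under 0.05, and edgeR called 0 in both. With library weights limma called 22 and 101 genes in these tests, and Per3 passed in the refed one (3.35, adjusted p = 0.00197). The fasted call of Per3 was lost without any of 6 single libraries (fasted ZT2 replicates 1, 3 and 5, and fasted ZT14 replicates 3, 4 and 6, with adjusted p from 0.0512 to 0.0749). The refed call was lost without refed ZT14 replicates 1, 2 or 3 (adjusted p = 0.247, 0.165 and 0.373) or refed ZT2 replicates 2, 4 or 5 (0.127, 0.0748 and 0.0854). edgeR's test on the recovered reads gave Per3 an adjusted p of 0.0654 in fasted and 0.135 in refed cells.

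Per1, the Period gene induced most rapidly by light and cAMP signals, showed no called time difference. In fed sorted cells it was 86.5, 117 and 216 at the lowest, median and highest at ZT2 and 103, 146 and 172 at ZT14, so that the times overlapped fully. In fasted sorted cells it was 28.5, 59.6 and 116 at ZT2 and 103, 197 and 339 at ZT14, a difference of 1.62 ± 0.50 (adjusted p = 0.181). In refed cells single libraries stood at 606 at ZT2 and 707 at ZT14, with the others between 23.2 and 138, and the difference was 0.91 ± 0.65 (adjusted p = 0.801). Averaged over the feeding states it was 0.87 ± 0.35 (adjusted p = 0.452). The same average was 1.23 ± 0.26 for Per3 and passed (adjusted p = 0.0210, 27th smallest p), and this call was lost without fed ZT14 replicates 1, 2 or 3 or refed ZT14 replicate 3 (adjusted p = 0.0777, 0.0507, 0.0614 and 0.0603). The Per3 average did not hold for each state, since it covers -0.53 in fed, 1.74 in fasted and 2.48 in refed cells. Before the log, the mean of Per3 over all sorted libraries was 349 at ZT14 and 396 at ZT2.

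Arntl, the gene of the activator BMAL1 that PER and CRY proteins repress, had differences of the opposite sign. Over all sorted cells Arntl fell by 1.13 ± 0.17 at ZT14 (adjusted p = 0.000529), and in fasted cells by 1.88 ± 0.24 (adjusted p = 5.59e-05). Among the other clock genes, 1 of 4 activators fell over all sorted cells (Arntl), where 0.335% of all genes were called, and 0 of 4 other repressors passed, with a median difference of 0.42 against -0.0067 for all genes. Of 9 E-box output and REV-ERB genes 1 rose, Nr1d2, which encodes the repressor REV-ERB beta, by 1.74 ± 0.26 (adjusted p = 0.000529). These averages did not hold for each feeding state. In fed sorted cells Arntl was 395 to 531 at ZT2 and 330 to 450 at ZT14, with overlap. Nr1d2 there was 731 to 1449 at ZT2 and 742 to 901 at ZT14, so no rise was seen. Nr1d1, which encodes REV-ERB alpha, ran the other way in fed cells, at 593 to 1269 at ZT2 and 365 to 431 at ZT14.

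RiboTag RNA gave no called time difference for any Period gene, and limma called 0 of 15444 genes in either feeding state. At an unadjusted p under 0.05 there were 92 genes in fed and 1381 in fasted RiboTag RNA, and edgeR called 0. In fed RiboTag RNA, Per2 was 280, 207 and 217 at ZT2 and 962, 689.5, 468 and 598 at ZT14. The times did not overlap, with a difference of 1.49 ± 0.83 (adjusted p = 1). In fasted RiboTag RNA, Per2 was 759, 94.6, 20.3, 139.9 and 92.7 at ZT2 and 141, 756, 128, 314 and 425 at ZT14, a difference of 1.30 ± 0.69 (adjusted p = 0.593), and replicate 1 at ZT2 lay above every ZT14 library. Per1 differed by 0.61 ± 0.55 in fed and 1.12 ± 0.46 in fasted RiboTag RNA, and Per3 by 0.80 ± 0.53 and 0.25 ± 0.44. All 6 differences were above 0 and their adjusted p-values were 0.531 or higher.

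**Figure D2:**
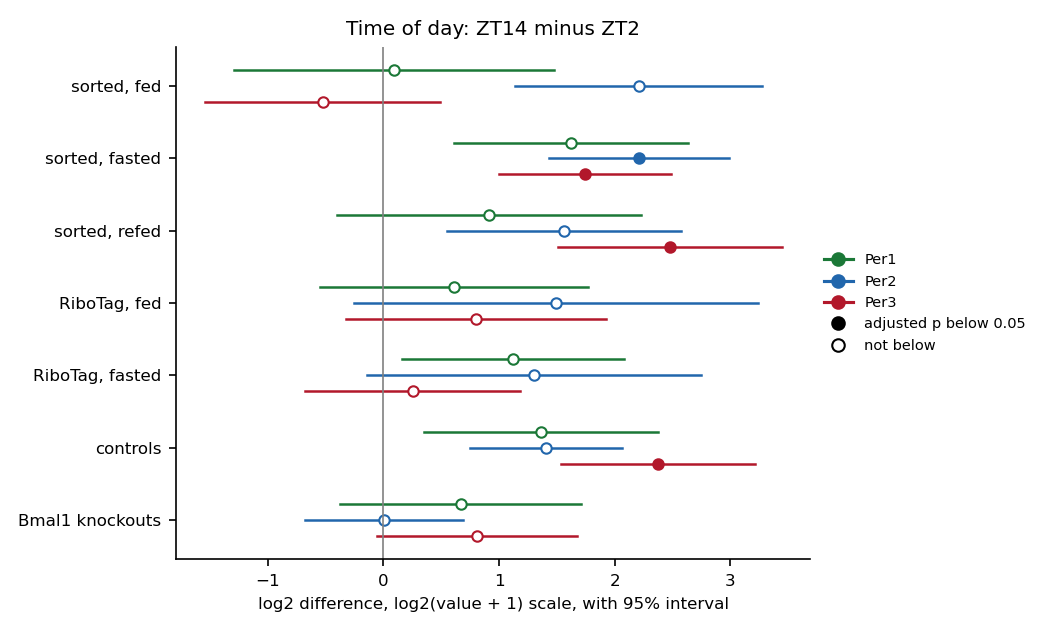
Differences between ZT14 and ZT2 (log2, x axis) of Per1, Per2 and Per3 in 7 settings, with 95% intervals; filled points passed an adjusted p of 0.05. Per2 is 2.21 in fed and in fasted sorted cells and 0.0052 in Bmal1 knockouts, while Per3 runs from -0.53 in fed to 2.48 in refed sorted cells.

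In the floxed controls of the leptin series, PBS and leptin averaged, all 3 Period genes were higher at ZT14 and Per3 passed the test. Per3 was 41.2 at the lowest, 70.9 at the median and 275 at the highest of 7 control libraries at ZT2, and 267, 464 and 673 of 6 at ZT14. The times overlapped only through the PBS control at ZT2 replicate 2, since the next highest ZT2 library stood at 130.3. Per3 rose by 2.38 ± 0.40 (adjusted p = 0.0104, 7th smallest p of 13942), where 0.143% of genes were called (0.0646% higher and 0.0789% lower). The call was lost without leptin control ZT2 replicate 3 (adjusted p = 0.0591) and in a fit of the compared groups alone (0.0532).

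Per2 was 77.2, 173 and 448 at the lowest, median and highest in controls at ZT2 and 290.3, 439 and 626 at ZT14. Its difference of 1.41 ± 0.32 did not pass (adjusted p = 0.0848), and without PBS control ZT2 replicate 2 it was 1.62 and passed (0.00459). Per1 was 96.8, 122 and 592 at ZT2 and 195, 385 and 545 at ZT14, with a difference of 1.36 ± 0.49 (adjusted p = 0.351). The library at 592 was again PBS control ZT2 replicate 2, and the next highest at ZT2 was at 126. In PBS controls alone Per3 differed by 2.72 ± 0.55 (adjusted p = 0.194), and by 3.32 without replicate 2 (0.00316). The leptin controls alone gave 2.03 ± 0.59 for Per3 and 1.62 ± 0.47 for Per2 (both adjusted p = 0.532).

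In the Bmal1 knockouts no Period gene passed, and limma and edgeR called 0 genes, with 1266 genes at an unadjusted p under 0.05. Per2 was 246, 295 and 599.8 at the lowest, median and highest of 6 knockouts at ZT2 and 203, 274 and 704 of 6 at ZT14. The times overlapped almost wholly, with a difference of 0.0052 ± 0.33 and a 95% interval from -0.68 to 0.69. Per3 was 28.8, 44.9 and 109.9 at ZT2 and 49.3, 84.0 and 156 at ZT14, a difference of 0.81 ± 0.42 (adjusted p = 0.580). Per1 was 48.9, 141 and 551 at ZT2 and 57.6, 225 and 498 at ZT14, a difference of 0.67 ± 0.50 (adjusted p = 0.777). The time difference was smaller in knockouts than in controls by 1.40 ± 0.46 for Per2 and 1.56 ± 0.58 for Per3 (-1.40 and -1.56), and by 0.70 ± 0.70 for Per1 (-0.70). None of these tests of the difference passed (adjusted p = 0.783, 0.868 and 0.957). limma and edgeR called 0 of 13942 genes in that test, with 659 at an unadjusted p under 0.05, among which Per2 had the 98th and Per3 the 207th smallest p.

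The genotypes were also compared at each time. Arntl itself, counted over all its exons, differed by -1.17 ± 0.29 in knockouts at ZT2 (adjusted p = 0.524) and -0.51 ± 0.30 at ZT14 (adjusted p = 0.638). Its values were 291, 832 and 1211 at the lowest, median and highest in controls and 246, 335 and 526.3 in knockouts at ZT2, so that the genotypes overlapped. Per3 fell in knockouts at ZT14 by 2.40 ± 0.42 (adjusted p = 0.0124, 8th smallest p), where 0.459% of genes were called (0.0861% higher and 0.373% lower). All 6 knockouts at ZT14, at 156 or lower, lay below all 6 controls, at 267 or higher. The call was lost without PBS knockout ZT14 replicate 2 (adjusted p = 0.0519). PBS and leptin libraries taken alone gave -2.42 ± 0.59 and -2.38 ± 0.59 for Per3 (adjusted p = 0.160 and 0.494).

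At ZT2 no Period gene passed between genotypes, and 0.0215% of genes were called. Per2 was 1.06 ± 0.32 higher in knockouts at ZT2 (adjusted p = 0.951, 43rd smallest p), with the lowest knockout at 246 above 6 of the 7 controls. Per3 was -0.84 ± 0.40 and Per1 -0.11 ± 0.49. At ZT14 Per2 differed by -0.35 ± 0.33 (adjusted p = 0.823) and Per1 by -0.81 ± 0.50 (adjusted p = 0.672).

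The output genes of the clock were set beside Per3 from a list of 9, of which 8 were tested in the leptin series. At ZT14, where 0.373% of all genes were called lower and 0.0861% higher, 3 fell in knockouts and 0 rose, with a median difference of -0.60 against 0.019 for all genes. These were Nr1d2 by 3.48 ± 0.49 (adjusted p = 0.00134), Tef, an activator at D-boxes, by 1.86 ± 0.30 (0.00517) and Nr1d1, which encodes REV-ERB alpha, by 1.13 ± 0.23 (0.0241). Between times, 3 of the 8 rose at ZT14 in controls, where 0.0646% of all genes were called higher, and 0 in knockouts: Nr1d2 by 3.02 ± 0.47 (adjusted p = 0.00543), Nr1d1 by 1.19 ± 0.22 (0.0226) and Tef by 1.45 ± 0.29 (0.0342). Both comparisons use the same control libraries at ZT14. Among 4 activators, Npas2, a paralog of Clock, rose in knockouts at ZT14 by 2.79 ± 0.54 (adjusted p = 0.0236), and of 4 other repressors 0 passed. Of 14 PER kinases, phosphatases and ubiquitin ligases 1 fell, Ppp1cc, a catalytic subunit of protein phosphatase 1, by 1.40 ± 0.28 (0.0241), and of 6 tested PER complex partners 0 passed.

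**Figure D3:**
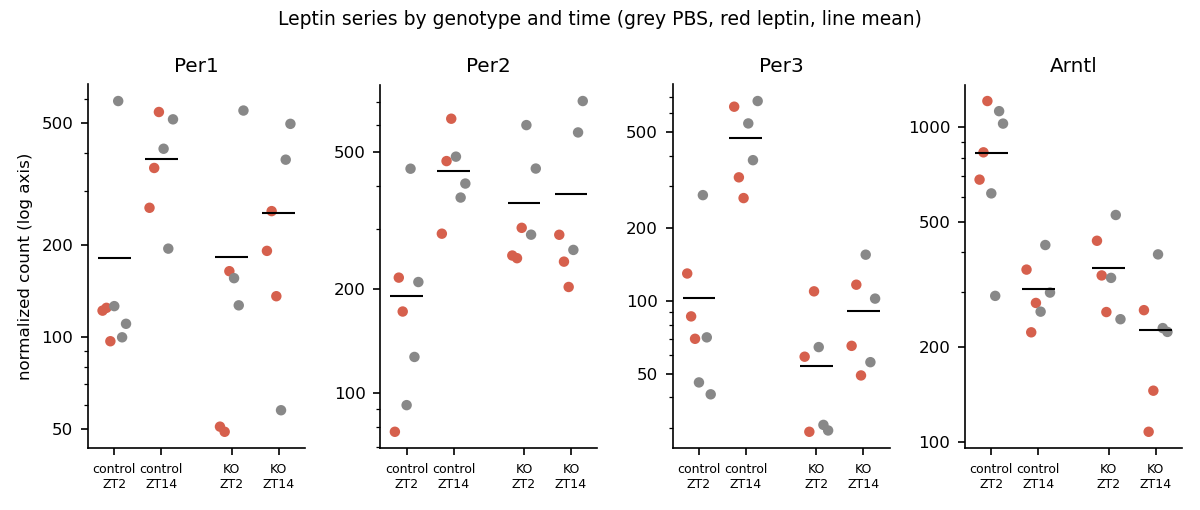
Normalised counts (log axes) of Per1, Per2, Per3 and Arntl in the 25 libraries of the leptin series by genotype and time, grey for PBS and red for leptin, with lines at the means of 6 or 7 libraries. At ZT14 every knockout lies below every control for Per3, and for Per2 the knockouts overlap, from 246 to 599.8 at ZT2 and from 203 to 704 at ZT14.

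Leptin, a satiety hormone that inhibits AgRP neurons, gave no called change of a Period gene. Averaged over both genotypes and times, a comparison added after the data were seen, leptin minus PBS was -0.57 ± 0.35 for Per1 (adjusted p = 1.00), -0.48 ± 0.23 for Per2 (0.758) and -0.017 ± 0.29 for Per3 (1.00), while 0.925% of genes were called. The 95% interval for Per3 ran from -0.62 to 0.58. In the 4 separate comparisons the adjusted p-values of the Period genes were 0.533 or higher. The largest difference was of Per1 in knockouts at ZT2, which was 156, 127 and 551 with PBS and 50.9, 48.9 and 164 with leptin (-1.56 ± 0.71). These groups overlapped.

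Fasting was the second question, and among the Period genes Per3 was the one that fell. In sorted cells at ZT2, Per3 was 722, 841 and 1791 at the lowest, median and highest of 6 fed libraries and 26.0, 43.4 and 209 of 7 fasted libraries. The groups were far apart, and the difference was -4.01 ± 0.39 (adjusted p = 1.78e-09), a 16.1-fold lower level, with the 62nd smallest p of 14931 genes. In this comparison 37.5% of genes were called, 18.3% as higher and 19.2% as lower, so that a call there is common. At ZT14 Per3 was 801, 587 and 681 in fed and 82.3, 209 and 414 at the lowest, median and highest in fasted cells, again with no overlap. It fell by 1.74 ± 0.48 (adjusted p = 0.0100), with 18.5% of genes called (9.66% higher and 8.81% lower), and without fed ZT14 replicate 1 the adjusted p was 0.0541.

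Per1 and Per2 did not pass in either fasting comparison of sorted cells. At ZT2 Per1 was -1.11 ± 0.54 (adjusted p = 0.103), with 4 of 7 fasted libraries below all 6 fed ones. Per2 was 0.17 ± 0.41 (adjusted p = 0.777) at ZT2 and 0.17 ± 0.50 (0.845) at ZT14, and Per1 was 0.43 ± 0.65 (0.693) at ZT14. The 95% interval of Per2 at ZT2 ran from -0.67 to 1.01.

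In RiboTag RNA the values of Per3 went the same way. At ZT2 they were 213, 531 and 354 in fed and 265, 117, 84.2, 67.8 and 187 in fasted RNA, a difference of -1.42 ± 0.51 with overlap that did not pass (adjusted p = 0.0898), where 7.89% of genes were called (4.08% higher and 3.81% lower). Without fasted ZT2 replicate 1, whose Per2 stood apart, the adjusted p was 0.0349. At ZT14 Per3 was 717, 647, 467 and 587 in fed and 67.2, 256, 140.3, 300.03 and 109.9 in fasted RNA, with no overlap. It fell by 1.97 ± 0.47 (adjusted p = 0.0157), where 5.29% of genes were called (4.15% higher and 1.14% lower), and this call was lost without fed ZT14 replicates 1 or 2 (0.0602 and 0.0525). Averaged over both times, an added comparison, Per3 fell by 1.70 ± 0.35 (adjusted p = 0.00234), with 22.1% of genes called (8.57% higher and 13.5% lower). Per2 was -1.11 ± 0.54 (0.145) and Per1 0.28 ± 0.36 (0.596). Without fasted ZT2 replicate 1, Per2 passed as well (0.0190). That library had the highest Per2 of its group, so leaving it out lowers the fasted level and this pass is no separate support. Its Nr1d2 was 1703, against 125 to 476 in the rest of its group and 1518 to 1820 in fed RNA at ZT2.

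The profile of high Cebpb and Alyref was also present at ZT5, where no fast is stated, and the levels of Per3 there are given beside it. The ZT5 libraries had Per3 at 83.3 and 185 in the libraries labelled control and 56.2, 21.4 and 158 in those labelled knockout. As a description across experiments, the ZT5 controls differed from the PBS controls at ZT2 by 0.66 for Per3, -1.34 for Per1 and -3.84 for Per2. These values rest on few libraries. ZT5 control 1 had Hsd11b2 against its label, and ZT5 control 2 alone, whose Per2 came from 1 read, gave 1.23, -0.999 and -6.28. The PBS controls at ZT2 include replicate 2, whose Per1 and Per3 stood apart. Per3 in those PBS controls, which were not labelled fasted and lacked the profile, was 46.2, 275, 70.9 and 41.2, all under the 722 to 1791 of fed sorted cells at the same time, and 3 of the 4 were under the 213 to 531 of fed RiboTag RNA. Astrocyte markers moved with fasting in sorted cells, 3 of 7 rising at ZT2 and 4 of 7 at ZT14, where 18.3% and 9.66% of all genes were called higher. Their summed level was 53.3 to 454 in fed and 192 to 10470 in fasted cells at ZT2 and 49.4 to 67.5 and 272 to 15600 at ZT14. Their part in the result was not tested.

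Genes of the same clock output list moved with Per3 in fasted sorted cells at ZT2. Of 9 members 5 fell and 1 rose, beside 19.2% of all genes called lower and 18.3% higher, and their median was -1.30 against -0.024 for all genes. Nr1d2 fell by 2.35 ± 0.40 (adjusted p = 1.96e-05), Nr1d1 fell by 1.73 ± 0.32 (6.06e-05) and Tef by 1.63 ± 0.30 (5.41e-05). The member that rose was Nfil3, the D-box repressor, by 3.46 ± 0.33 (1.24e-09). At ZT14, where Per3 also fell, Nr1d2 did not, at 742 to 901 in fed and 898 to 3364 in fasted sorted cells. Nr1d1 was then 365 to 431 in fed and 288 to 804 in fasted cells, with overlap. Tef was 523.5 to 619 in fed cells at ZT14 and 217 to 1952 in fasted ones, most of which lay below the fed range. Over both times in RiboTag RNA, Nfil3 rose by 2.93 ± 0.38 (adjusted p = 2.73e-05), and Tef and Nr1d2 fell by 1.35 ± 0.33 (0.00836) and 1.45 ± 0.47 (0.0363).

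Among the other repressors in sorted cells at ZT2, Cry1 rose by 3.42 ± 0.34 (adjusted p = 2.67e-09) and Bhlhe40, which encodes the E-box repressor DEC1, fell by 2.23 ± 0.77 (0.0211). Of the 4 activators, Arntl rose by 0.79 ± 0.26 (0.0148), and Clock and Arntl2 fell by 1.27 ± 0.26 (0.000196) and 1.17 ± 0.32 (0.00464). Of 14 PER kinases, phosphatases and ubiquitin ligases, 4 rose and 2 fell at ZT2, 6 of 14 in all, near the 37.5% of all genes called in this comparison. Csnk1e, the casein kinase that marks PER for degradation, rose by 1.30 ± 0.23 (3.51e-05), and Gsk3b fell by 1.66 ± 0.23 (5.56e-07).

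The known inducers of Per1 were described from their target lists. In fasted against fed sorted cells at ZT2, 8 of 10 glucocorticoid-inducible genes were called higher and 0 lower, beside 18.3% of all genes called higher and 19.2% lower. In this comparison the fast and the profile of high Cebpb and Alyref cannot be told apart. Their median was 2.18, and among them Fkbp5 rose by 2.16 ± 0.32 (adjusted p = 2.01e-06) and Mt2, a metallothionein gene, by 6.47 ± 0.62 (1.16e-09). Of 13 tested CREB- and SRF-inducible genes 7 rose and 1 fell, with a median of 1.21, beside the same shares of all genes. Crem rose by 1.55 ± 0.26 (1.73e-05) and Sik1, a salt-inducible kinase gene induced by CREB, fell by 2.03 ± 0.66 (0.0152). Per1, a member of neither list, was at -1.11 in the same comparison, below the medians of both lists. Any link between these lists and Per1 was not tested.

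In the main limma fit, refeeding for 1 h gave no called difference of a Period gene from the fasted state, while 21.8% of genes were called at ZT2 (10.8% higher and 11.1% lower) and 11.7% at ZT14 (6.36% higher and 5.3% lower). Per3 differed by -0.15 ± 0.42 at ZT2 (adjusted p = 0.833), with a 95% interval from -0.996 to 0.69, and by 0.58 ± 0.43 at ZT14 (0.447). Per2 differed by 1.09 ± 0.44 at ZT2 (0.0701) and 0.44 ± 0.46 at ZT14 (0.609). Without fasted ZT2 replicates 4 or 7 or refed ZT2 replicate 3, the Per2 difference at ZT2 passed (adjusted p = 0.0499, 0.0428 and 0.0102). It also passed in edgeR's test (1.29, adjusted p = 0.0371). With library weights in limma, the Per3 difference at ZT14 passed (1.15, adjusted p = 0.0102).

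The refed cells were then compared with fed cells, which are the same fed libraries as in the fasting comparisons. Per3 was low in refed cells at ZT2, which lacked the profile of high Cebpb and Alyref, at 35.9 to 102.8 against 722 to 1791, a difference of -4.17 ± 0.43 (adjusted p = 3.10e-08, 12th smallest p). In that comparison 17.7% of genes were called, 9.01% as higher and 8.72% as lower. At ZT14 the difference was -1.16 ± 0.54 (adjusted p = 0.733), where 0.375% of genes were called, 0.362% as higher and 0.0134% as lower. Per2 at ZT2 was higher in refed than in fed cells by 1.26 ± 0.45 (adjusted p = 0.0483), and that call was lost without any of 5 of the 6 fed or 4 of the 5 refed libraries at ZT2 (adjusted p from 0.0512 to 0.212). The exceptions were fed replicate 6 and refed replicate 3. Without refed replicate 4, whose Nr1d2 was near the levels at ZT14, the Per2 difference was 0.91 (adjusted p = 0.212). The call was lost in 14 of 18 alternatives in all, among them no filter (0.0653), library weights (0.0595), edgeR (0.0695) and a fit of the compared groups alone (0.119).

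**Figure D4:**
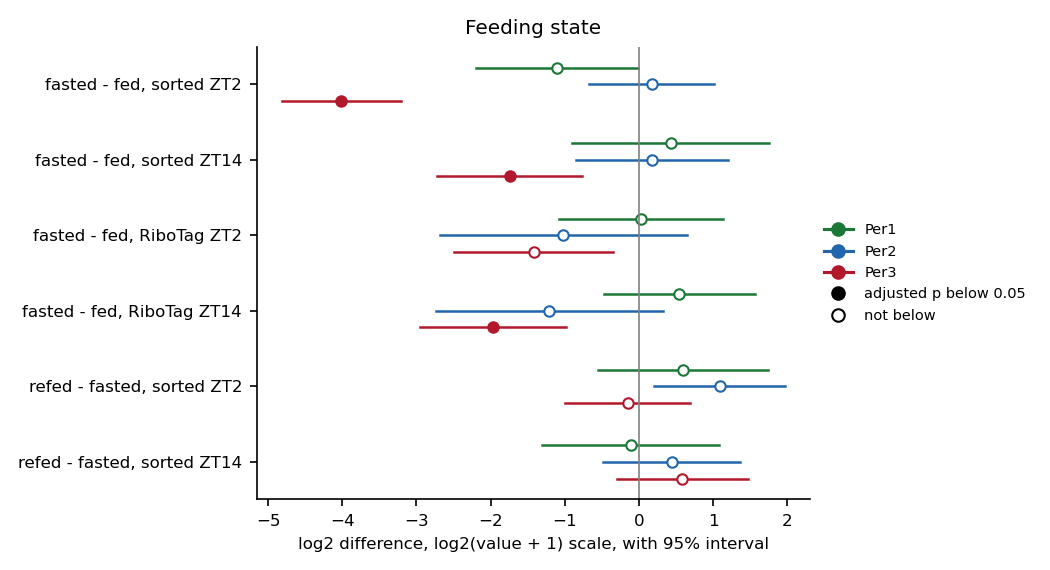
Differences by feeding state (log2, x axis) of Per1, Per2 and Per3 in sorted cells and RiboTag RNA, with 95% intervals; filled points passed an adjusted p of 0.05. Per3 is below 0 in all 4 fasting comparisons, from -4.01 to -1.42, and no Period gene passed between refed and fasted cells.

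At ZT5, in the middle of the light phase, no Period gene passed between genotypes as labelled, and limma and edgeR called 0 of 12940 genes, with 1157 at an unadjusted p under 0.05. Per2 was 68.9 and 1.4 in the libraries labelled control 1 and 2, the latter from 1 read, and 102, 134 and 18.7 in those labelled knockout 1, 2 and 3 (2.34 ± 1.43, adjusted p = 0.658). The 3 libraries with high Hsd11b2 were the 3 with Per2 at 68.9 or above and Per3 at 83.3 or below, whatever their label. Without both libraries whose Hsd11b2 goes against the label, an alternative added after the data were seen, the differences were 5.64 for Per2 (adjusted p = 0.246), -2.38 for Per3 (0.476) and -0.63 for Per1 (0.853), with 1 control and 2 knockouts left and the lone control assumed to vary like the knockouts. Without single libraries the difference ranged from -0.11 to 4.78 for Per2 and from -0.56 to 0.13 for Per1, and library weights gave 0.068 for Per3. Per1 was 49.9 to 84.3 in all 5 libraries.

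The genes whose levels ran most like each Period gene were named from Pearson correlations of log2 values, given as a description. The libraries of an experiment share their groups, and no test is attached. Over the 25 leptin-series libraries, the 3 genes most like Per1 were Sik1 (r = 0.91), Corin (0.83), which encodes a protease made in AgRP neurons, and Pcgf5 (0.83). The 3 most like Per2 were Cry2 (0.82), its partner in the repressor complex, Sorcs3 (0.76) and Sik2 (0.74). The 3 most like Per3 were Nr1d1 (0.90), Nr1d2 (0.87) and Pcsk4 (0.87), and Tef, named after its values were seen, followed in 5th place (0.83).

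Over the 33 sorted libraries the nearest genes were others. Per1 ran with Lpin1 (0.70), Ptprz1 (0.69) and Rbm10 (0.68), and Per2 with Slc25a29 (0.79), Arhgef3 (0.77) and Prkx (0.77). Per3 ran with Sstr1 (0.85), a somatostatin receptor gene, and Letm2 (0.81), and Tef again came after them (0.81). Sstr1 was 265 ± 125 (SD, n = 6) in fed and 9.6 ± 8.2 (n = 7) in fasted sorted cells at ZT2.

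The libraries in which Per1 stood apart were also high in Sik1. Sik1 was named for its likeness to Per1 over the leptin series, so the PBS control and PBS knockout below are no separate support. PBS control ZT2 replicate 2, with Per1 at 592, had Sik1 at 148 against 22.8 to 51.9 in the rest of its group. PBS knockout ZT2 replicate 4, with Per1 at 551, had Sik1 at 102.2 against 43.9 and 43.9. Refed ZT14 replicate 2, with Per1 at 707, had Sik1 at 162 against 20.4 to 63.6, and refed ZT2 replicate 4, with Per1 at 606, had Sik1 at 94.9 against 24.5 to 58.7. High Sik1 also occurred where Per1 did not stand apart. Fed sorted ZT2 replicate 6 had Sik1 at 118.6 and Per1 at 216, and fed sorted ZT14 replicate 3 had Sik1 at 131.9 and Per1 at 172. Each was the highest of its group for Per1. In RiboTag RNA the 2 genes parted more often. Fed ZT14 replicate 1 had the highest Sik1 of its group, 344, with Per1 at 230, inside the 211 to 242 of the group. Fasted ZT14 replicate 4 had Per1 at 623 with Sik1 at 116, and replicate 2 had Per1 at 302.5 with Sik1 at 322. Replicate 5 of that group was the highest for both, at 690 and 348.

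**Figure D5:**
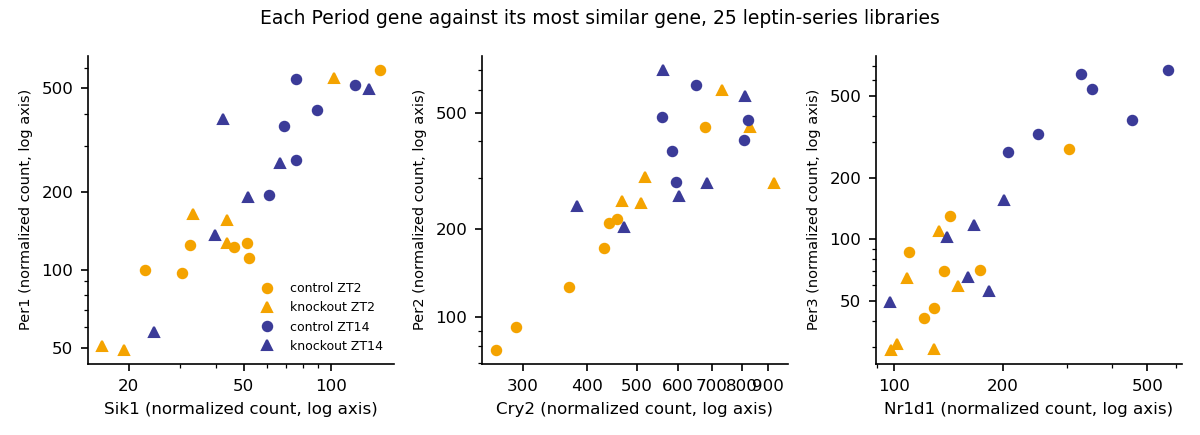
Each Period gene (y axis) against its most similar gene (x axis) in the 25 leptin-series libraries, as normalised counts on log axes, circles for controls, triangles for knockouts, coloured by ZT. Per1 follows Sik1 (r = 0.91) in both genotypes, and the control libraries at ZT14 lie at the upper end for Per3 and Nr1d1 (r = 0.90).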

How the data were processed

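RNA-seq was deposited as 1 table of normalised counts, a signal that the authors made by dividing gene counts by a size factor per library, as the values themselves show: in 79 libraries low values were whole multiples of 1 step within 0.1, and fed sorted ZT2 replicate 4 was the exception. Per the labels' protocols, GFP-positive cells were sorted by FACS or RiboTag RNA was immunoprecipitated, and RNA was amplified with SMART-seq v4 and made into Nextera XT libraries. The submitters' processing notes name the build mm10 and the tools R 3.5.1, DESeq and DESeq2, Subread's featureCounts, and STAR 2.5.1, with no order given in the sources used here. Strand settings are not given either.

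The 4 experiments were fitted separately, each over every one of its groups, with limma-trend (limma 3.58.1, R 4.3.3) on log2(value + 1), which understates folds of low genes. A gene was tested if it reached 10 in at least the number of libraries of the smallest group, with Benjamini-Hochberg adjustment over all such genes and a threshold of 0.05. Each library stayed in the group its label gives. The members, gene lists and comparisons were chosen with earlier results of these data known. In each list up to 4 called genes with the smallest p were named, and for each Period gene the 3 most similar genes, leaving out predicted symbols; 1 of the similar genes is not reported here. Alternatives were a pseudocount of 10, no filter, TMM rescaling, library weights, a replicate block, edgeR 4.0.16 (quasi-likelihood test on recovered reads), only the compared groups, and each library left out. The edgeR fit of sorted cells lacked fed ZT2 replicate 4, so there it differs from limma in libraries as well as in test. The limma code was tested on simulated data. No pair of replicates agreed within sampling noise. Same-numbered libraries did not deviate together at the median, though some pairs did.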

Additional observations from a re-analysis of the deposited data

Results flagged for a closer look

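In groups of 4 to 10 libraries, 7 of 27 combinations of gene and group held 1 library whose gap to the nearest other was large for the range of the group (Dixon's 95% value). Chance flags about 1 in 20 where values are normally distributed. The rule was applied to values before the log, all 7 flags were of the highest library, and the share expected for such values was not tested. Per1 was at 591.72 in the PBS control at ZT2 replicate 2 (others 99.7 to 126), at 707.13 in refed ZT14 replicate 2 (others 77.1 to 138) and at 606.41 in refed ZT2 replicate 4 (others 23.2 to 109.8). Per2 was at 1132.1 in fasted sorted ZT14 replicate 5 (others 182 to 393) and at 758.81 in fasted RiboTag ZT2 replicate 1 (others 20.3 to 139.9). Per3 was at 274.84 in the PBS control at ZT2 replicate 2 (others 41.2 to 70.9) and at 209.09 in fasted sorted ZT2 replicate 6 (others 26.0 to 90.2). PBS control ZT2 replicate 2 was flagged for Per1 and Per3, and its Per2, at 448, was also the highest of its group, next to 210.1. Its Nr1d2 was at 1208, against a group median of 98.2, and its Nr1d1 at 305, against a group median of 151. Refed ZT2 replicate 4, flagged for Per1, had Nr1d2 at 815, against 56.6 to 107 in the rest of its group. Its Nr1d1 was at 525, against 112 to 144, while Per3 was at 102.8 or lower in every library of that group. The cause was not tested.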

How the results depend on the processing

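Values are log2 differences. Over 114 results, 13 of which passed, no alternative reversed a difference that passed, and no reversed difference itself passed. Library weights gave more calls, only some of which are given here. The Per3 time difference was then 3.35 larger in refed than in fed sorted cells (adjusted p = 0.00197), and Per3 was 1.15 with refeeding at ZT14 (0.0102). Per2 was 2.23 between times in fed sorted cells (adjusted p = 0.00333), 1.86 in refed sorted cells (0.0115) and 1.50 in floxed controls (0.000859). Per1 was 2.06 in fasted sorted cells (0.00971) and 1.71 in floxed controls (0.00454). With fasting in sorted cells at ZT2, Per1 was -1.39 (0.00886). With only the compared groups, Per1 passed in that fasting comparison (-1.11, adjusted p = 0.0426), and Per3 lost its time call in fasted sorted cells (1.74, 0.238), refed sorted cells (2.48, 0.4596) and floxed controls (2.38, 0.0532). The edgeR test lost Per3 between times in fasted (1.66) and refed (2.49) cells, and no filter lost it in refed cells (2.48, 0.0645).

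Same-numbered libraries had median correlations between -0.032 and 0.032, so the replicate numbers showed no general pairing. Above 0.1 were 12 of 65 such pairs in sorted cells, 7 of 22 in RiboTag RNA and 22 of 78 in the leptin series. The highest were 0.41, 0.46 and 0.41 and the lowest -0.44, -0.38 and -0.28. A median cannot show whether some groups shared a batch. The replicate block ended the Per3 time call in fasted sorted cells (1.76, adjusted p = 0.0520) and the Per2 call between refed and fed cells at ZT2 (1.34, 0.0568), and it cut the genes called between times in fasted cells from 42 to 9. It reversed uncalled values of Per2 with fasting in sorted cells at ZT14 (-0.12) and its change with time (-0.26), Per1 with fasting in RiboTag RNA at ZT2 (-0.27) and Per3 with leptin in controls at ZT2 (-0.0011).

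Other reversed values did not pass in any fit. The change of the Per2 time difference with fasting in sorted cells was -0.0012 with TMM rescaling and -0.51 with library weights, which also gave -0.25 for Per2 with fasting at ZT14, 0.31 for Per2 with leptin in controls at ZT2 and 0.068 for Per3 between genotypes at ZT5. edgeR gave -0.0062 for Per1 between times in fed sorted cells, -0.18 for Per3 with leptin in controls at ZT2, 0.047 for Per2 with fasting in RiboTag RNA at ZT2, and 0.31 and 0.38 for Per1 between refed and fed cells at ZT2 and refed and fasted cells at ZT14.

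With each library left out in turn, Per3 ranged from -1.89 to -1.56 with fasting at ZT14 and between times from 1.55 to 2.04 in fasted cells, 2.31 to 2.78 in refed cells and 2.19 to 2.67 in floxed controls, and from -2.57 to -2.21 between genotypes at ZT14. Per2 between times in controls ranged from 1.19 to 1.62. Values near 0 crossed it. In sorted cells Per2 ranged from -0.030 to 0.41 with fasting at ZT2, -0.084 to 0.35 at ZT14 and -0.25 to 0.20 for the change with time. Per1 there ranged from -0.073 to 0.30 between times in fed cells, -0.092 to 1.07 and -0.80 to 0.26 with refeeding at ZT2 and ZT14, and -0.37 to 0.69 between refed and fed cells at ZT14, and Per3 from -0.38 to 0.15 with refeeding at ZT2. In RiboTag RNA Per1 ranged from -0.27 to 0.28 with fasting at ZT2 and the Per2 change with time from -0.80 to 0.49. Between times, Per2 ranged from -0.14 to 0.22 in knockouts and -0.14 to 0.57 in PBS knockouts, Per1 from -0.58 to 0.97 in PBS knockouts and Per3 from -0.15 to 0.79 in leptin knockouts. Between genotypes Per1 ranged from -0.44 to 0.19 at ZT2, -0.27 to 0.98 and -1.22 to 0.33 in PBS libraries at ZT2 and ZT14, and -0.56 to 0.13 at ZT5, and Per2 from -0.11 to 0.60 in PBS libraries at ZT14 and -0.11 to 4.78 at ZT5. With leptin, Per1 ranged from -0.83 to 0.027 and -0.31 to 0.39 in controls at ZT2 and ZT14 and -1.20 to 0.34 in knockouts at ZT14, Per2 from -0.68 to 0.081 and -0.17 to 0.38 in controls at ZT2 and ZT14, and Per3 from -0.066 to 0.84 in controls at ZT2 and -0.13 to 0.13 over all libraries. The cause of these changes was not tested.

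Counts of genes called are given with their lowest and highest over the alternatives. Between times they were 0 (0 to 35) in fed, 42 (8 to 301) in fasted and 4 (0 to 93) in refed sorted cells, 50 (16 to 359) over all sorted cells, 20 (3 to 793) in floxed controls, 0 (0 to 491) in knockouts, 1 (0 to 10) in PBS controls and 0 (0 to 1658) in leptin controls, and 0 (0 to 3) in fasted RiboTag RNA. They were 0 (0 to 22) and 0 (0 to 101) for the change of the time difference with fasting and refed state and 0 (0 to 97) with genotype. With fasting they were 2758 (1257 to 5539) in sorted cells at ZT14 and 1219 (370 to 2877) and 817 (553 to 2145) in RiboTag RNA at ZT2 and ZT14 and 3411 (2140 to 5213) over both. They were 1741 (1138 to 3960) with refeeding at ZT14, 2648 (1438 to 3467) and 56 (21 to 737) between refed and fed cells at ZT2 and ZT14, 3 (1 to 151) and 64 (8 to 470) between genotypes at ZT2 and ZT14, 0 (0 to 400) at ZT5 and 129 (85 to 336) with leptin over all libraries. TMM rescaling moved the median of all genes by 0.11 with fasting in RiboTag RNA at ZT2, where Per3 was then -1.31. Depth limits low values: the lowest Per2 value came from 1 read.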
